A study of Mus musculus with 6 samples.

Results

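Neural immunoglobulin adhesion molecules are cell surface proteins with immunoglobulin-like domains that hold neurons together and guide their axons. Here they are Ncam1, Ncam2, Alcam, L1cam, Nrcam, Chl1 and Cntn1, chosen by name, and the members are all probe sets that the platform annotation pairs with these 7 genes, 28 of the 45101 on the array (7 genes of the 18193 named). The data are signals of 6 one-colour Affymetrix mouse arrays hybridised with RNA from hippocampus. HuD, encoded by Elavl4, is a neuronal RNA-binding protein of the ELAV family that binds AU- and U-rich stretches of mRNAs. Of the arrays, 3 held RNA recovered on protein-G beads with anti-myc antibody to transgenic HuD, 2 held RNA from protein-G beads with non-immune IgG, and 1 held total input RNA. Nothing used here gives the strain, the age of the mice, the promoter of the transgene, or whether the IgG and input RNA also came from transgenic animals.

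The members encode proteins of the neuronal surface. Ncam1 and its paralog Ncam2 bind to themselves on neighbouring cells, and NCAM1 carries polysialic acid, which loosens adhesion during axon growth and in the adult hippocampus. L1cam, Nrcam and Chl1 belong to the L1 family, whose cytoplasmic tails bind ankyrins and so reach the spectrin skeleton below the membrane. Cntn1 is a contactin, held in the membrane by a lipid anchor and paired with transmembrane partners such as Nrcam and the contactin-associated proteins. Alcam, also called CD166, binds itself and is used by growing axons that run in bundles.

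The 6 arrays had been scaled to a common level before deposit, so a difference is relative to the rest of an array's RNA and not one of total amounts. Signals were compared as log2(signal + 32) per probe set, and a probe set was called when its adjusted p was under 0.05 in limma's test over all 45037 probe sets. The 2 IgG arrays differed more between themselves than the HuD arrays did, with an SD of log2 differences across probe sets of 0.495 against 0.324 to 0.396. All 5 neuronal markers had a probe set with a signal above the array's median, while the summed signal of the liver markers Alb and Apoa1 was 14.0 to 40.4. Among markers of hippocampal excitatory neurons Wfs1, Neurod2 and Zbtb20 read 778, 211 and 169 in the input, Fibcd1 read 55.7, and Prox1, a marker of dentate granule cells, read 9.80. Of the choroid plexus markers, the brightest probe set of Ttr read 8913 in the input and 11823 to 18336 in the pulldowns, Kcnj13 read 218 and 36.0 to 146, and Clic6 read 278 and 142 to 282. Another probe set of Ttr was lower with HuD than with IgG (−1.49, adjusted p = 0.0221), the 1 of 7 of this list that was called.

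By their brightest probe sets, Ncam1, Alcam, Chl1 and Cntn1 RNA was higher in the HuD pulldowns than in the IgG pulldowns, by 3.06 to 5.43-fold, while L1cam and Nrcam RNA was 2.46-fold and 2.74-fold lower, and no probe set of Ncam2 was called with the deposited scaling. Of the 28 probe sets 8 were called higher, 28.6% against 5.73% of all probe sets. Another 4 were called lower, 14.3% against 8.7% of all, and 16 were not called. The median log2 difference was 0.16 over the members and −0.079 over all probe sets. The HuD and IgG arrays did not overlap for 20 member probe sets, with HuD above in 12 (16% of all probe sets did this) and HuD below in 8 (28.2% of all). Mean log2 signals above the median of the array were found for 17 of the 28, and these held 8 of the rises and 3 of the falls. When only probe sets above the median were fitted, 8 members were called higher and 3 lower, and 3309 and 5861 of all. The shares over all probe sets include the dim ones, where calls were fewer, so they are not shares at like brightness. Without HuD array 1, 2 or 3 there were 6, 7 or 5 member probe sets called higher and 0, 2 or 1 called lower, while 565, 1716 or 820 of all were called higher and 160, 1888 or 431 lower. The split of calls over all probe sets, 2579 higher and 3918 lower, depended on the scaling, with 8624 and 2617 after 75th percentile centring, 3717 and 3262 after median centring and 2942 and 2562 after quantile normalization. The split of the members was 8 and 4 with the deposited scaling, and 13 and 4, 8 and 4, and 7 and 4 under these 3. The titles carry 2 suffixes, each on both HuD and IgG arrays. The 8 risen probe sets differed by 0.76 to 2.49 within the first and by 1.19 to 2.51 within the second, and the differences of the 4 that fell were −1.77 to −0.94 and −1.70 to −0.77.

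**Figure D1:**
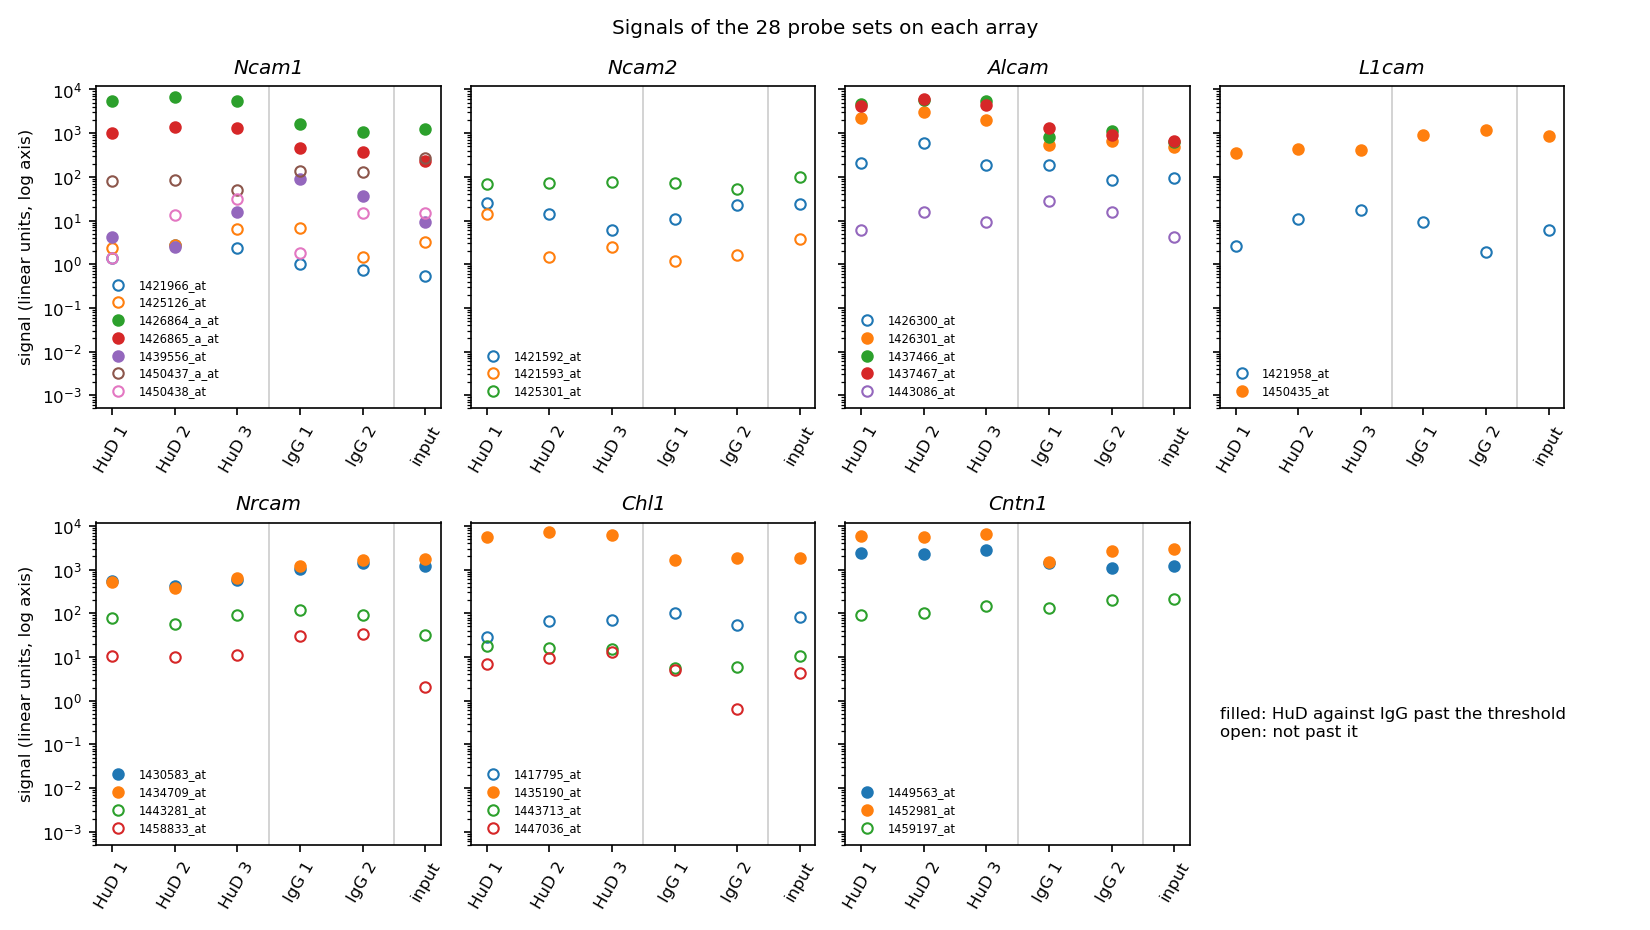
Signal of each of the 28 probe sets on each array, on a log axis, 1 panel per gene; filled points mark probe sets called for HuD against IgG. The brightest probe sets of Ncam1, Alcam, Chl1 and Cntn1 sit higher on all 3 HuD arrays than on both IgG arrays, and those of L1cam and Nrcam sit lower.

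Ncam1, the neural cell adhesion molecule, was read by 7 probe sets that divided. The brightest, 1426864_a_at, had signals of 5346, 6651 and 5537 in HuD arrays 1, 2 and 3, 1588 and 1069 in IgG arrays 1 and 2, and 1255 in the input. Every HuD array was far above all IgG and input arrays, a 4.38-fold difference between the pulldowns (log2 difference 2.13 ± 0.26, adjusted p = 0.00415), and the IgG arrays lay on either side of the input. Probe set 1426865_a_at, annotated to the same source sequence, read 1004, 1403 and 1278 in HuD arrays 1, 2 and 3, 446 and 379 in IgG arrays 1 and 2, and 235 in the input. It was 2.82-fold higher with HuD (log2 difference 1.49 ± 0.23, adjusted p = 0.00742), again without overlap, and its call was lost without HuD array 3.

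The other 5 probe sets of Ncam1 were not called higher with the deposited scaling. Probe set 1450437_a_at read 81.8, 84.8 and 49.3 in HuD arrays 1, 2 and 3, 136 and 128 in IgG arrays 1 and 2, and 267 in the input, lowest in the HuD arrays and highest in the input. Its difference between the pulldowns was not called (log2 difference −0.68 ± 0.26, adjusted p = 0.122), while HuD was below the input (log2 difference −1.54 ± 0.32, adjusted p = 0.0347), a call also lost with quantile normalization. The rises of 1426864_a_at and 1426865_a_at exceeded its change by 2.81 ± 0.30 and 2.17 ± 0.31 on the log2 scale, which passed the test of the difference between probe sets of a gene (adjusted p = 0.000856 and 0.00216). The dim probe set 1439556_at read 4.20, 2.41 and 15.97 in HuD arrays 1, 2 and 3, 91.2 and 37.1 in IgG arrays 1 and 2, and 9.22 in the input, so its fall of −1.24 ± 0.30 (adjusted p = 0.0305) came with IgG signals above the input. That call was lost with either block of the titles, without any 1 of the HuD arrays and without IgG array 1, where the value was −0.82. The remaining 3 stayed between 0.54 and 30.8 units on all arrays, with log2 differences from −0.012 to 0.20, none called with the deposited scaling. With 75th percentile centring 1 of them, 1421966_at, was called higher (0.37, adjusted p = 0.0313).

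Ncam2, the paralog best known from the olfactory system, gave no call in any comparison with the deposited scaling. With arrays centred on their 75th percentile the dim 1421593_at was called higher against IgG (0.49, adjusted p = 0.0423). Its brightest probe set, 1425301_at, read 70.0, 70.4 and 76.7 in HuD arrays 1, 2 and 3, 70.8 and 52.7 in IgG arrays 1 and 2, and 97.5 in the input. The groups overlapped, and the log2 difference of HuD to IgG was 0.16 with a 95% interval of −0.39 to 0.72, which leaves room for a moderate change either way. The other 2 probe sets read 1.21 to 25.0 units on all arrays, with differences of −0.063 and 0.17.

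L1cam, the founding member of the L1 family, was lower with HuD. Its bright probe set 1450435_at read 360.2, 429 and 420.1 in HuD arrays 1, 2 and 3, 914 and 1170.2 in IgG arrays 1 and 2, and 841 in the input. All HuD arrays lay below the IgG and input arrays, and L1cam was 2.46-fold lower with HuD (log2 difference −1.30 ± 0.22, adjusted p = 0.00991). The other probe set, 1421958_at, annotated to the same sequence, stayed at 1.92 to 17.7 units with overlapping groups (0.16), and the pair differed in its change (1.46 ± 0.30, adjusted p = 0.00938). The L1cam call was lost without HuD array 1 or 3.

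Nrcam, an L1 family member of nodes of Ranvier and axon initial segments, was also lower. Probe set 1434709_at read 509, 377 and 637 in HuD arrays 1, 2 and 3, 1209 and 1664 in IgG arrays 1 and 2, and 1778 in the input, so that HuD lay below IgG and IgG near the input. It was 2.74-fold lower with HuD than with IgG (log2 difference −1.46 ± 0.28, adjusted p = 0.0138). Probe set 1430583_at read 537, 425 and 579.6 in HuD arrays 1, 2 and 3, 1060.4 and 1399.9 in IgG arrays 1 and 2, and 1208 in the input and was 2.31-fold lower (log2 difference −1.21 ± 0.24, adjusted p = 0.0159), with a change not called different from that of 1434709_at (0.25 ± 0.27, adjusted p = 0.603). The call of 1434709_at was lost without HuD array 1 or IgG array 2, and that of 1430583_at without any 1 of the HuD arrays. The dimmer 1443281_at and 1458833_at, at 56.9 to 118 and 10.1 to 33.1 units in the pulldowns, were also lower with HuD than with IgG but not called (−0.37, adjusted p = 0.397, and −0.58, adjusted p = 0.0614). Without the mean-variance trend 1458833_at was called lower (adjusted p = 0.0377). Both read less in the input than in any pulldown, at 32.3 and 2.01 units.

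Chl1, the close homolog of L1, rose, while L1cam and Nrcam of the same family fell. Its bright probe set 1435190_at read 5719, 7368 and 6306 in HuD arrays 1, 2 and 3, 1681 and 1861 in IgG arrays 1 and 2, and 1819 in the input. The HuD arrays stood far above all others, and the IgG arrays were near the input. Chl1 was 3.59-fold higher with HuD (log2 difference 1.84 ± 0.24, adjusted p = 0.00457), a call kept under all 16 alternatives. The other 3 probe sets read 0.66 to 103 units. Probe set 1417795_at overlapped between the groups (−0.35, adjusted p = 0.56), while 1443713_at (0.37) and 1447036_at (0.27) had HuD above IgG without a call, except with 75th percentile centring (0.68 and 0.58). The change of 1435190_at was larger than that of each of the 3 (adjusted p of at most 0.0065).

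Cntn1, the contactin that partners with Nrcam and contactin-associated proteins, was higher in 2 of 3 probe sets. Probe set 1452981_at read 6000.5, 5737 and 6594 in HuD arrays 1, 2 and 3, 1492 and 2611 in IgG arrays 1 and 2, and 2916 in the input, with the HuD arrays close together and the IgG arrays further apart. It was 3.06-fold higher with HuD (log2 difference 1.61 ± 0.29, adjusted p = 0.0117), a call lost without HuD array 1 or 3. Probe set 1449563_at read 2409, 2246 and 2763 in HuD arrays 1, 2 and 3, 1407 and 1071 in IgG arrays 1 and 2, and 1203 in the input and was 1.98-fold higher (log2 difference 0.99 ± 0.24, adjusted p = 0.0292). That call was lost with quantile normalization (0.73), without any 1 of the HuD arrays and without IgG array 2. The third, 1459197_at, read 91.2, 101 and 148 in HuD arrays 1, 2 and 3, 130.4 and 198 in IgG arrays 1 and 2, and 218 in the input and was not called (−0.43, adjusted p = 0.355). Its change was below that of 1452981_at by 2.04 ± 0.28 (adjusted p = 0.00195) and below that of 1449563_at by 1.42 ± 0.33 (adjusted p = 0.0148).

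Alcam had the highest fitted difference of the 7 genes and 3 probe sets called higher. Probe set 1437466_at read 4716, 5877 and 5533 in HuD arrays 1, 2 and 3, 814 and 1131 in IgG arrays 1 and 2, and 634 in the input, 5.43-fold higher with HuD than with IgG (log2 difference 2.44 ± 0.25, adjusted p = 0.00317). Probe set 1437467_at read 4118, 6119 and 4513 in HuD arrays 1, 2 and 3, 1325 and 896 in IgG arrays 1 and 2, and 646 in the input, 4.35-fold higher (log2 difference 2.12 ± 0.28, adjusted p = 0.00471). Probe set 1426301_at read 2192, 2971 and 1981 in HuD arrays 1, 2 and 3, 542 and 653 in IgG arrays 1 and 2, and 493 in the input, 3.79-fold higher (log2 difference 1.92 ± 0.25, adjusted p = 0.0046). In these 3 every HuD array lay above every other array, the calls were kept under every alternative tried, and no pair among them was called different. Probe set 1426300_at read 211, 603 and 189.8 in HuD arrays 1, 2 and 3, 185 and 82.9 in IgG arrays 1 and 2, and 92.4 in the input, with HuD array 2 far above the other HuD arrays, and was not called (log2 difference 1.04 ± 0.48, adjusted p = 0.198), except with 75th percentile centring (1.36, adjusted p = 0.0239). The dim 1443086_at stayed at 4.30 to 28.4 units (−0.35, adjusted p = 0.277), and its change differed from that of each of the other 4 (adjusted p of at most 0.0381).

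**Figure D2:**
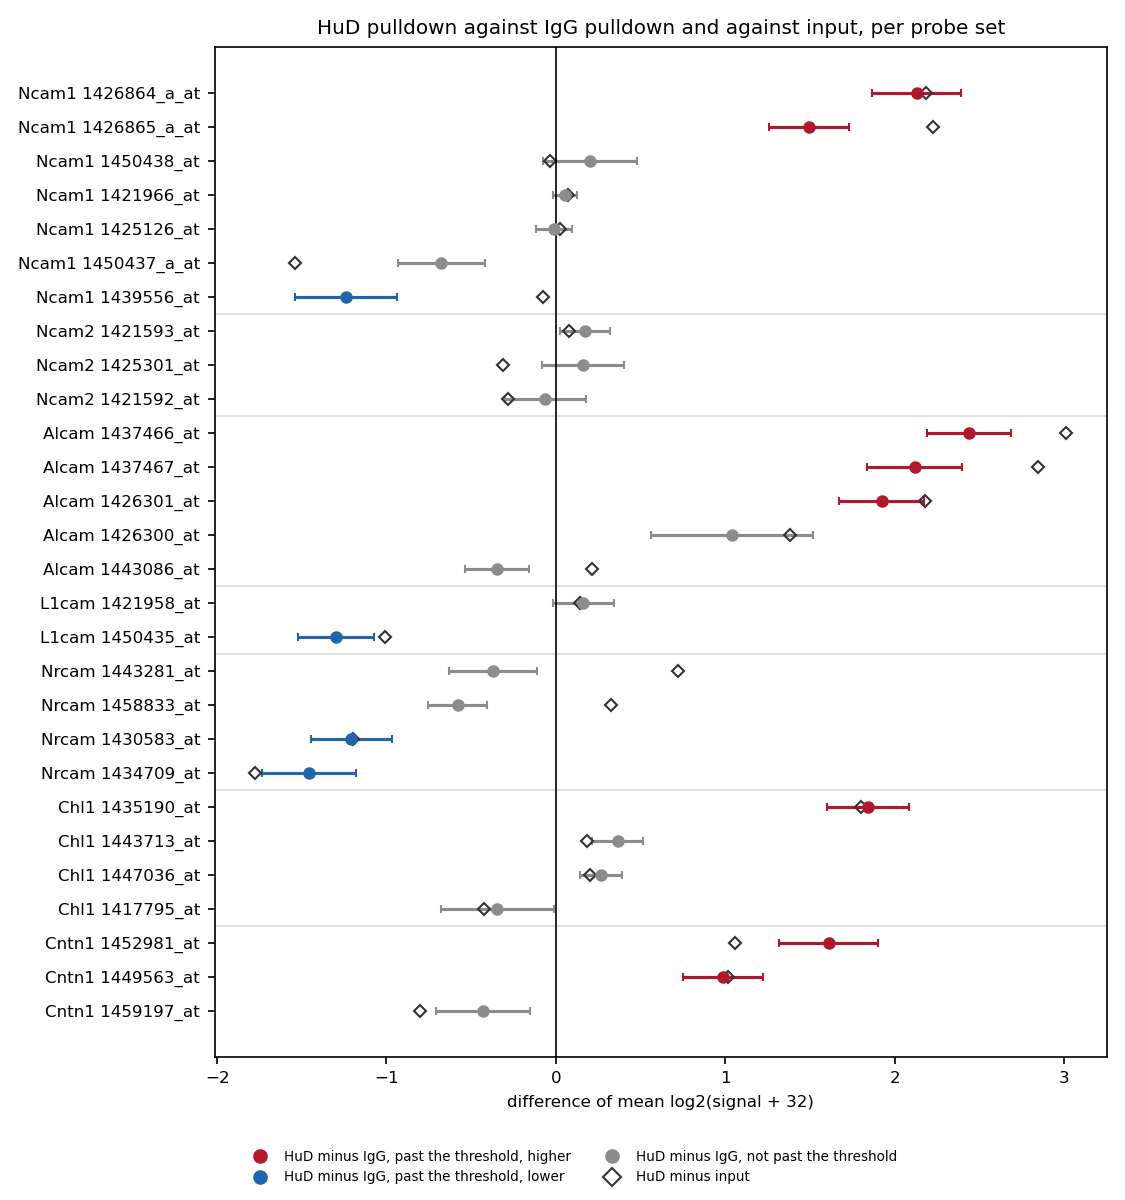
Difference of mean log2(signal + 32) for each probe set, grouped by gene; circles with bars are HuD minus IgG ± SE (3 and 2 arrays), and diamonds are HuD minus the single input array. Differences to IgG run from −1.46 for a probe set of Nrcam to 2.44 for a probe set of Alcam.

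Within genes, 24 of the 50 pairs of member probe sets changed differently between the pulldowns, 48%, against 16.9% of the 30372 pairs of all genes. Pairs of a gene share probe sets and are not independent, and Ncam1 alone gave 21 of the 50 pairs and 13 of the 24 called. Many of these pairs set a bright probe set against a dim one, whose log2 difference the added 32 makes smaller. Where both probe sets were above the array's median, 6 of 16 member pairs were called, against 19.3% of 12185 such pairs of all genes. The 6 pairs came from Ncam1 (2), Cntn1 (2), Nrcam (1) and Chl1 (1), and 0 of the 6 such pairs of Alcam were called, with unadjusted p from 0.0116 to 0.545. Which transcript form or region each probe set reads was not analysed here.

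Against the input, the only array of unselected RNA, bright probe sets of Alcam, Ncam1 and Chl1 were higher with HuD and 1 probe set each of Nrcam and Ncam1 was lower. Of the 28 probe sets 6 were called higher, 21.4% against 2.72% of all, and these were the 3 of Alcam (3.01, 2.85 and 2.18), the 2 brightest of Ncam1 (2.18 and 2.22) and the brightest of Chl1 (1.80). After 75th percentile centring 9 members were higher, against 3729 higher and 1061 lower of all, and after median centring 3 were lower, against 1439 higher and 2863 lower of all. With the deposited scaling the adjusted p of the 6 lay between 0.0168 and 0.0215, and 1225 probe sets of all were higher and 1444 lower. A further 2 were called lower, 7.14% against 3.21% of all, 1434709_at of Nrcam (log2 difference −1.77 ± 0.35, adjusted p = 0.0296) and 1450437_a_at of Ncam1. The Cntn1 probe sets 1452981_at and 1449563_at were at 1.06 and 1.02, 1450435_at of L1cam at −1.01 and 1430583_at of Nrcam at −1.20, none called (adjusted p = 0.144, 0.0912, 0.0776 and 0.0598). They were called in these directions under 3, 2, 5 and 6 alternatives. This comparison shares the HuD arrays with the one against IgG, so it is no independent repeat of it. It rests on 1 input array assumed to vary like the pulldowns, and all its calls, over members and the whole table, were lost when any 1 HuD array was left out or the title suffix was a block. In tissue RNA such as the input, fewer cells of a type and less RNA per cell cannot be told apart.

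Between the beads with non-immune IgG and the input, no member was called higher or lower. Among all 45037 probe sets limma called 0% in either direction. At an unadjusted p under 0.05 there were 5 member probe sets and 7.39% of all. These 5 were 1426865_a_at (0.73), 1439556_at (1.16) and 1450437_a_at (−0.86) of Ncam1, and 1443281_at (1.10) and 1458833_at (0.90) of Nrcam. The brightest probe sets of Chl1 and Ncam1 were at −0.040 and 0.054, and that of Alcam at 0.57. This comparison set 2 IgG arrays against 1 input array, so its lack of calls does not show that bead RNA and input were alike. Outside the members, the brightest probe sets of Zbtb20 and Ncan were at 2.23 and −1.73 without a call.

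Related adhesion molecules divided in the same comparison of HuD with IgG. Of 69 probe sets of 30 measured genes 9 were called higher (13%, against 5.73% of all probe sets). Another 8 were called lower (11.6%, against 8.7% of all), and the median was −0.15. After 75th percentile centring 16 were higher and 5 lower, and after quantile normalization 9 and 4. Cadm1, a synaptic cell adhesion molecule, was 4.81-fold higher by its brightest probe set (2.27 ± 0.26, adjusted p = 0.00381), with 3 of its 4 probe sets called higher. The contactins Cntn4 (1.46 ± 0.26, adjusted p = 0.0119) and Cntn3 (1.22 ± 0.33, adjusted p = 0.0463) and the lipid-anchored Opcml (1.06 ± 0.21, adjusted p = 0.0159) rose as well, the contactins in 1 of 2 probe sets each and Opcml in both. Icam5, an adhesion molecule of dendrites (−1.36 ± 0.31, adjusted p = 0.0258), the contactin Cntn6 (−1.36 ± 0.33, adjusted p = 0.0294), Cadm4 (−1.27 ± 0.25, adjusted p = 0.0147) and Dscaml1 (−1.19 ± 0.30, adjusted p = 0.0349) fell, Dscaml1 in 1 of 5 probe sets. Cntn3 was not called under 8 of 16 alternatives, Dscaml1 under 7 and Cntn6 under 5, among them quantile normalization (all 3) and the title suffix as a block (Cntn3 and Cntn6). Without HuD array 1 or 3 there were 3 or 4 probe sets called higher and 0 called lower.

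Partners of these molecules and enzymes that modify or cut them were called in both directions. Of 101 probe sets of 33 genes 9 were higher (8.91%, against 5.73% of all probe sets). Another 5 were lower (4.95%, against 8.7% of all), and the median was −0.0041. After 75th percentile centring 24 were higher and 5 lower. Ncan, the brain proteoglycan neurocan, which binds NCAM1 and L1, was 5.05-fold higher than in IgG by its brightest probe set (2.34 ± 0.21, adjusted p = 0.00288), with its other 2 not called. That probe set read 1224, 1163 and 1067 in HuD arrays 1, 2 and 3, 218 and 187 in IgG arrays 1 and 2, and 744 in the input, with IgG below the input and HuD above it (HuD minus input 0.61, adjusted p = 0.248). The receptor phosphatase genes Ptprs (1.47 ± 0.23, adjusted p = 0.00742) and Ptprd (1.43 ± 0.26, adjusted p = 0.0123) rose, in 1 of 4 and 5 of 7 probe sets. Tnr, the matrix protein tenascin R that binds contactins (−1.38 ± 0.28, adjusted p = 0.0179), and the spectrin gene Sptan1 (−1.37 ± 0.25, adjusted p = 0.0116) fell in all their probe sets, 1 and 2. Without HuD array 1 or 3 there was 1 probe set called higher, and 0 were called lower.

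**Figure D3:**
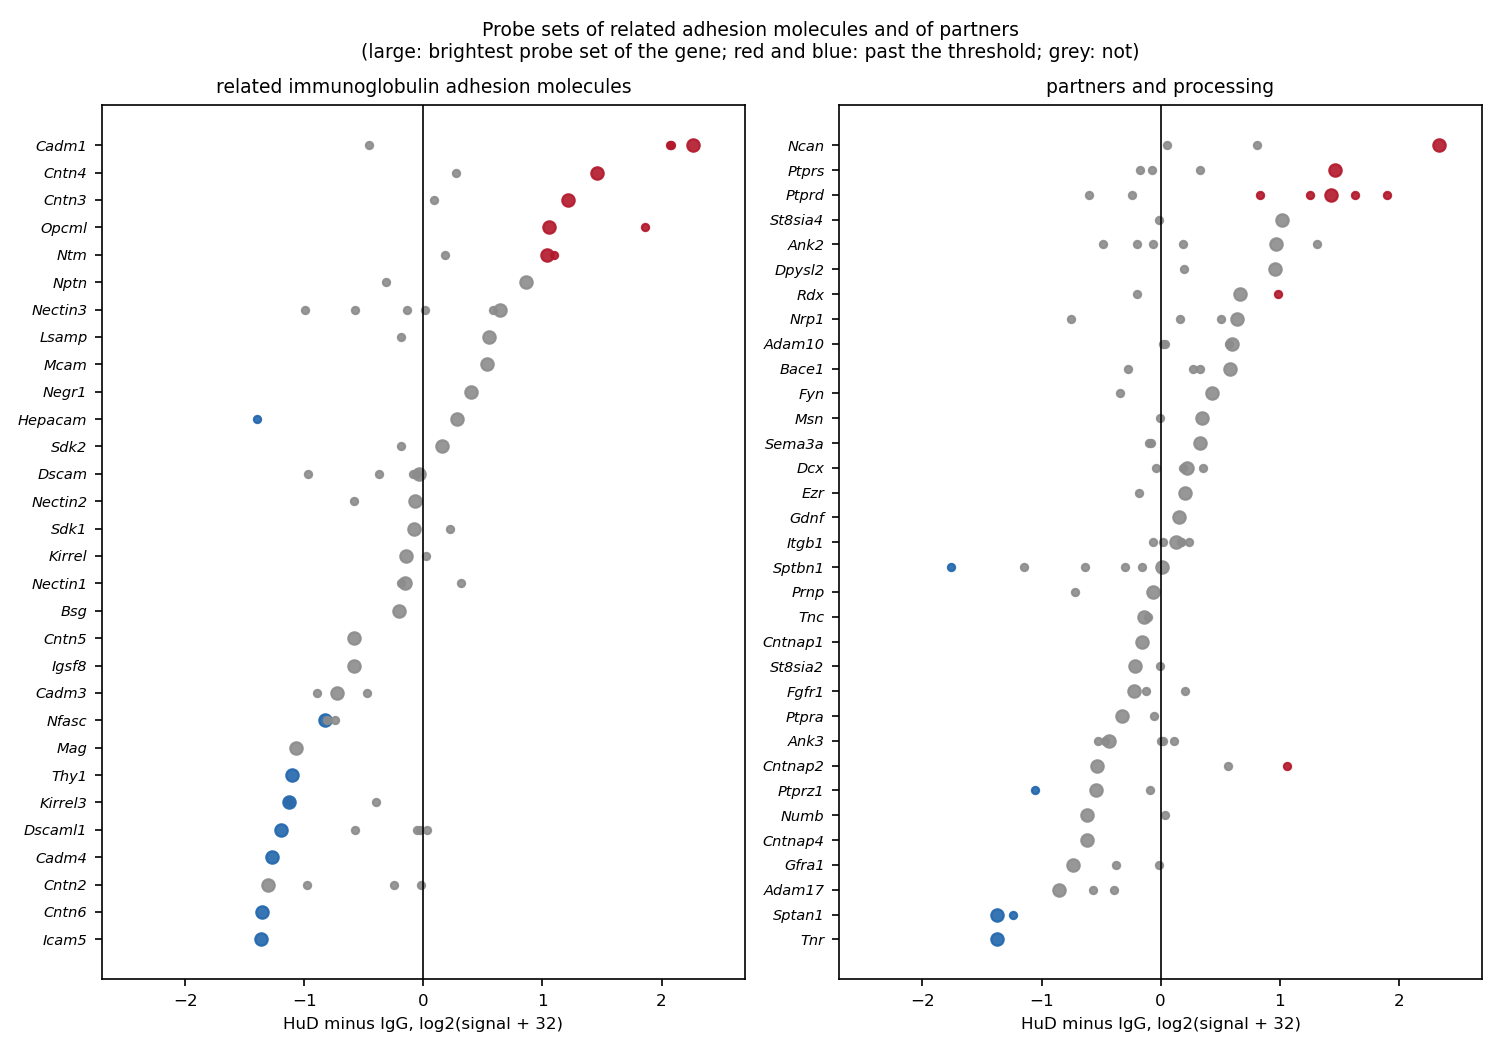
Difference of mean log2(signal + 32), HuD minus IgG, for every probe set of the related adhesion molecules and of the partners; the large point is a gene's brightest probe set, and red and blue are called higher and lower. Values run in both directions in both lists, and genes are ordered by their brightest probe set, from Icam5 and Tnr at the bottom to Cadm1 and Ncan at the top.

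Markers of other cell types also differed between the pulldowns, where 5.73% of all probe sets were called higher with HuD and 8.7% lower. The summed signal of the astrocyte markers Gfap, Aqp4 and Aldoc was 2941 to 3084 on the HuD arrays, 6910.1 and 8338 on the IgG arrays and 6692 in the input. Of their 8 probe sets 3 were called lower, of Gfap and Aldoc. Aldoc made up 1879 to 2504 of that sum with HuD and 6080 and 6797 with IgG. The brightest probe set of Aqp4 was at 0.0029 against IgG and not called. The summed signal of the microglia markers C1qa, Cx3cr1 and Csf1r was 1014 to 1408, 2205 and 3022, and 3459. Of their 6 probe sets 3 were called lower, of C1qa and Csf1r. Csf1r made up 782 to 1249 of that sum with HuD and 1859 and 2679 with IgG. The brightest probe set of Cx3cr1 was at −0.28 against IgG and not called. The summed signal of the neuronal markers Snap25, Syt1, Stmn2, Rbfox3 and Nrgn was 21960.4 to 26507 with HuD, 17120 and 20644 with IgG and 18651 in the input, with 0 of 12 probe sets called higher and 1 lower. Snap25 made up 11136 to 16051 of that sum with HuD, the brightest probe sets of Stmn2 and Rbfox3 were at −0.71 and −0.62 against IgG (neither called), and the median log2 difference of the list was −0.66. The hippocampal excitatory neuron markers summed to 1280 to 1459 with HuD, 2133 and 1444 with IgG and 1224 in the input, with 1 of 17 probe sets called higher, 3 lower and a median of −0.73. All 3 lower calls were of Zbtb20, the gene with the most probe sets in this list. The higher call was the brightest probe set of Neurod2 (0.83, adjusted p = 0.048). Those of Wfs1, Prox1 and Fibcd1 were at 0.012, −0.46 and −0.73 and not called. The endothelial markers summed to 41.1 to 60.4, 133 and 196, and 105, while the oligodendrocyte sums overlapped, at 8502 to 12501 with HuD and 12046 and 18766 with IgG. Cldn5 made up nearly all of the endothelial sums and was called lower against IgG (−1.25, adjusted p = 0.0187). The other endothelial marker, Pecam1, read 1.98 to 3.92 units on all arrays and was not called (0.041). None of these markers was at 0. The summed signal of the liver markers was not at 0 either, so this does not show which cell types were present. The part of these markers in the values of the adhesion molecules was not tested.

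The gene most like each member over the 6 arrays, by Pearson correlation of log2(signal + 32) between the brightest probe sets, was Zbtb44 for Ncam1 (0.998), Wsb2 for Ncam2 (0.993), Cpeb4 for Alcam (0.999), Lamb1 for L1cam (0.998), Psmb5 for Nrcam (0.995), Ube2v2 for Chl1 (0.999) and Sri for Cntn1 (0.999). These are descriptions over arrays that share 3 groups and 1 scaling. Between 426 and 775 of the 11434 genes compared were above 0.95 for every member but Ncam2, which had 5.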

How the data were processed

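The authors' deposited table held 1 intensity per probe set on a linear scale. Its mean, trimmed by 2% at each end, was 150.001 on all 6 arrays, so each array had been scaled to 1 level before deposit. Software and genome build: not given in the sources used here. No detection calls were used. Groups came from the labels' descriptions. Array numbers follow accession order and name arrays only. The titles end in 1 of 2 suffixes whose meaning is not given. The labels do not say that arrays came from separate animals, so p-values reflect the spread among these arrays alone, possibly technical, and the number of arrays limits the precision.

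A platform annotation named 34945 probe sets with 1 gene symbol, and gene identifiers were matched to RefSeq for names only. After 64 array controls were left out, log2(signal + 32) of 45037 probe sets was fitted with 1 mean per group by limma 3.58.1 in R 4.3.3 (lmFit, eBayes with a mean-variance trend), with Benjamini-Hochberg adjustment over all probe sets and a threshold of 0.05. Values after ± are standard errors of log2 differences. Folds are on this scale and understate changes of dim probe sets, which were not filtered. The fit had 3 residual degrees of freedom. Differences between probe sets of a gene were tested by the same model without a trend on within-array log2 differences of all 30372 pairs of probe sets with the same symbol. Both fits were tested on simulated data.

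Members, lists and rules were chosen with earlier results of these data known. From the lists of related molecules and partners, up to 4 genes per direction were named, those with the largest difference by their brightest probe set among the called; Cadm2 of the first list was not matched and was not analysed here. Alternatives were pseudocounts of 16 and 64, 3 other scalings, a filter at the median signal, no trend, 1 probe set per gene, each pulldown array left out, only the 2 groups compared, and blocks from the titles.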

Additional observations from a re-analysis of the deposited data

How the results depend on the processing

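Calls of the 12 member probe sets for HuD against IgG kept their direction under every alternative tried, and no called member value changed sign in any comparison. Values of uncalled member probe sets changed sign 14, 12 and 18 times (HuD to IgG, HuD to input, IgG to input), out of 231, 272 and 388 values of such probe sets, none of them called in either setting and from main values of at most 0.20, 0.31 and 0.34. Within the title suffix le1 and within e1_le1 all 12 called members had the same direction. This follows from the lack of overlap between their HuD and IgG arrays and is no separate support.

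Centring on the 75th percentile moved the median log2 difference of all probe sets by 0.32 (HuD to IgG) and 0.35 (HuD to input), and median centring moved it by 0.15 (HuD to IgG) and −0.22 (IgG to input). With 75th percentile centring 13 members and 8624 of all probe sets were higher for HuD against IgG, adding 5 member rises, while 16 probe sets of the related list were higher and 5 lower, 24 of the partners were higher, 3729 of all were higher for HuD against input, and 60 and 1 were higher and lower for IgG against input. Median centring gave 14 higher partners, 2863 lower probe sets for HuD against input and 1 higher for IgG against input. Quantile normalization gave 2562 lower of all and 4 lower related probe sets for HuD against IgG, and removed 1 member rise, so that a rise depends on the scaling for 6 members.

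Among probe sets above the median signal 17 related and 8 partner probe sets were lower for HuD against IgG, and 10 and 11 were higher. Of all probe sets 5861 were then lower and 3309 higher, against 3918 and 2579 without the filter. For HuD against input 4 members were lower, with 2196 higher and 3515 lower of all, and for IgG against input 53 and 1 of all. The filter left 6 member pairs and 2238 pairs of all genes called, since it removes pairs with a dim probe set. With only the 2 groups compared, 4 members and 2482 of all were lower for HuD against input.

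Pairing was tried in 2 ways. With the title suffix as a replicate block 0 members and 0 of all probe sets were higher, and 0 and 0 lower, for HuD against input, and of the member calls against IgG that of 1439556_at of Ncam1 was lost (−1.20). The title suffix and number together as a block lost the same call (−1.15). In this block HuD array 2 shared its level with no IgG array. The block could not be fitted for the input, which has no number. Deviations from group means correlated across probe sets at −0.028 for HuD array 1 with IgG array 1 and at 0.22 for HuD array 3 with IgG array 2. HuD array 2 was not compared. The deviations of the 2 IgG arrays mirror each other, so these values cannot decide whether the numbers pair the arrays.

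Leaving out 1 array gave 5 to 8 higher and 0 to 3 lower members for HuD against IgG, and 565 to 2129 higher and 160 to 4118 lower of all. The lowest counts came without HuD array 3 for higher members (5) and without HuD array 1 for lower members (0) and for all probe sets. Related probe sets were higher in 3 to 8 and lower in 0 to 7, and partners in 1 to 8 and 0 to 8. For HuD against input members were higher in 0 to 6 and lower in 0 to 4, and all probe sets in 0 to 1653 and 0 to 2352. Called pairs of all genes were 2150 to 4778. Fewer arrays leave fewer residual degrees of freedom, and the cause of single losses was not tested. When an IgG array was left out the lone one was assumed to vary like the other groups. Signal over background could not be judged without detection calls, so dim probe sets limit what can be said of Ncam2 and of the dimmer probe sets of the other genes.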
